A study of Mus musculus with 6 samples.

Results

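MHC class II antigen presentation was followed through the cell types of the mouse sciatic nerve in newborns and young adults by 8 genes. They are H2-Aa, H2-Ab1, H2-Eb1, H2-DMa, H2-DMb1, Cd74, Ciita and Ctss, which are 8 of the 41605 gene rows in each library, and they were matched by symbol. All 8 symbols were present once in each of the 6 libraries. Single-cell RNA sequencing libraries (10x Chromium, 3′ end counting of unique molecular identifiers, UMIs) had been made in triplicate for newborn mice at postnatal day 1 (P1) and for young adults at day 60 (P60). Every mouse carried a Cre transgene (-/+) active in the Schwann cell lineage, ReYFP Tg/+ and βAct-DsRed Tg/+ on the C57bl/6J background, and DsRed marked cells of all kinds. The sort differed between the ages, so age and sort cannot be told apart. Each library was its own 10x run, and no run held both ages. Each library pooled cells from male and female mice, DsRed-positive cells were sorted, some of the Schwann cells were discarded from the P1 sort, and the mice were not perfused, so blood cells could be present.

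On build GRCm38, 5 of the genes lie in the major histocompatibility complex on chromosome 17: H2-DMa (chr17:34119541-34139101, plus strand), H2-DMb1 (chr17:34153072-34160230, plus), H2-Ab1 (chr17:34257689-34269419, plus), H2-Aa (chr17:34282744-34287823, minus) and H2-Eb1 (chr17:34305867-34316674, plus). Cd74 is at chr18:60803848-60812652 (plus), Ciita at chr16:10480059-10528418 (plus) and Ctss at chr3:95526786-95556403 (plus). H2-DMa overlaps CR974462.3 on its own strand and Brd2, CR974462.4 and Gm20493 on the other, H2-Eb1 overlaps Gm20513 and Ciita overlaps Dexi on the other strand, and the strand setting of the counting was not given in the sources used here. H2-DMb1 has a near-identical neighbour, H2-DMb2, with which it can share reads.

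Class II molecules are pairs of an alpha and a beta chain that carry peptides from the endosome to the cell surface, where CD4 T cells read them. H2-Aa and H2-Ab1 encode the chains of the I-A molecule and H2-Eb1 the beta chain of I-E, whose alpha chain is not made in C57bl/6 mice. Cd74, the invariant chain, fills the groove until cathepsin S, the product of Ctss, trims it to a short remnant, and H2-DM (H2-DMa with H2-DMb1) then exchanges this remnant for other peptides. Ciita is the transactivator that switches the family on, and it acts at upstream elements named the X and Y boxes. Dendritic cells, B cells and many macrophages are the usual sites of expression, and class II on Schwann cells and endothelial cells has been discussed mostly for inflamed nerves.

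RefSeq promoter windows (GRCm38.p6) were matched for 5 of the 8 genes, and not for H2-Ab1, Cd74 and Ciita. The 110 bases before the annotated starts of H2-Aa, H2-Eb1 and Ctss are shown 5′ to 3′ on the gene's strand, because H2-Aa and H2-Eb1 rose together with age in macrophages while Ctss did not pass the test there. Capitals mark the letters found by a search for AACNGATG (X box), TGATTGG (Y box), TGACGTCA (a cyclic AMP response element, like the X2 box) and a pair of GAAA runs with 2 bases between them (interferon-stimulated response element, ISRE). H2-Aa is read from chr17:34287824-34287933, H2-Eb1 from chr17:34305757-34305866 and Ctss from chr3:95526676-95526785.
H2-Aa: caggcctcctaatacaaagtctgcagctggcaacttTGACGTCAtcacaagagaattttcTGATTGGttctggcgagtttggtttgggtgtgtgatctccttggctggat
H2-Eb1: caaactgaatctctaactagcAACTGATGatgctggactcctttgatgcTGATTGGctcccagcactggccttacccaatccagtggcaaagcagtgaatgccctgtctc
Ctss: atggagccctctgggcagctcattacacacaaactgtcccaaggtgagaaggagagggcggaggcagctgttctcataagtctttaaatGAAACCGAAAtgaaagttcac

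The Y box letters stood 50 bases before the start in H2-Aa, 61 in H2-Eb1 and 63 in H2-DMb1. X box letters stood 89 bases before the start in H2-Eb1, 92 in H2-DMb1 and 207 in Ctss, and the ISRE letters stood 21 bases before the start of Ctss. Over 32851 windows, searched on both strands in the 250 bases upstream, 1.98% held the X box letters, 7.23% the Y box, 1.55% TGACGTCA and 2.98% the ISRE. No motif overlapped another, the letters were chosen after the windows had been seen, and a match is a description of the sequence and not of a bound site. No match was found in the H2-DMa windows.

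After a filter of 500 to 5000 genes per cell, 24337 of 24510 barcodes were kept, 11735 at P1 and 12602 at P60. Libraries held 26685231 to 30334608 UMIs at P1 and 20203440 to 26480736 at P60, with medians of 6077 to 6840 and 3627 to 5561 UMIs per cell. P60 replicate 3 was the shallowest library, and 16.2% of its cells had over 10% mitochondrial UMIs. Any pair of libraries shared at most 33 barcodes, under 1% of a library. Cells were clustered at each age without the 8 genes and the other genes of the pathway, and clusters were named from fixed markers, which gave 604 macrophages at P1 and 841 at P60, 139 and 423 other leukocytes, 725 and 1805 endothelial cells, 3177 and 419 Schwann cells, 5045 and 7860 fibroblasts, and 603 and 865 mural cells (pericytes and smooth muscle). Some leukocyte clusters that could not be named (305 cells at P1 and 118 at P60) and clusters of mixed markers stayed outside these classes. Further leukocyte clusters without a name, of 98 cells at P1 and of 219 and 116 cells at P60, were counted as other leukocytes. Levels below are counts per 1000000 UMIs of the class in a library (CPM). They are not per length and are compared within a gene only. Replicate p-values measure the spread between these pooled libraries.

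Macrophages gained class II expression between the ages. 7 of the 8 genes rose by the edgeR quasi-likelihood test with Benjamini-Hochberg adjustment over all genes of the class, against a background of 38.1% of 8600 genes called in either direction and 19.2% called higher, and Ctss was the exception. In the same 7 genes all P60 libraries lay above all P1 libraries, as in 20.5% of the genes tested. Marker lists of other leukocytes were also higher in P60 macrophages, with summed levels of 27.0 to 33.5 CPM and then 193 to 266 CPM for 8 dendritic genes, 39.8 to 70.1 and then 230 to 371 CPM for 5 monocyte genes and 138 to 189 and then 384 to 537 CPM for 5 B cell genes. At P60 Cd209a (94 to 135 UMIs a library), Batf3, Ccr2 and Ighm held most of these sums, while Xcr1 and Clec9a gave at most 3 UMIs a library, Chil3, Cd79a and Ms4a1 gave 0 and Ly6c2 gave 1 UMI in all. The part of other leukocytes in the class II change was not tested. The class II genes' median log2 change was 6.25 with Ciita at its lower bound (7.63 as fitted), beside 0.01 over all genes tested.

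Cd74, the invariant chain, stood at 105, 237 and 69.5 CPM in P1 replicates 1, 2 and 3 and at 25430, 22580 and 18121 CPM in the P60 replicates. The ranges did not overlap, and the log2 change was 7.41 (SE 0.40, adjusted p = 1.9e-07). H2-Aa was at 3.79, 43.3 and 0.551 CPM at P1 and at 7884, 6530 and 6196 CPM at P60, a log2 change of 8.84 (SE 0.69, adjusted p = 2.1e-06). P1 replicate 2 was the high library of the newborn group, yet lay far below each adult library. Its partner H2-Ab1 was at 8.21, 58.2 and 6.07 CPM and then at 7705, 6957 and 6036 CPM (log2 change 8.24, SE 0.58). H2-Eb1 was at 3.16, 52.8 and 1.65 CPM and then at 5832, 5119 and 4490 CPM (log2 change 8.15, SE 0.70).

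The high values of P1 replicate 2 came from 1 droplet. It held 71 of the 80 H2-Aa UMIs, 85 of the 122 H2-Ab1 UMIs, 81 of the 97 H2-Eb1 UMIs and 215 of the 692 Cd74 UMIs of all P1 macrophages, and was among the droplets with the highest Scrublet doublet scores. Without it, H2-Aa in that library was at 1.19 CPM, H2-Ab1 at 7.76, H2-Eb1 at 4.78 and Cd74 at 110 CPM. Replicate 2 then lay between the other P1 libraries for H2-Aa and H2-Ab1 and remained the highest for H2-Eb1 and Cd74. The cells showed the same difference, since 1.09% to 2.21% of P1 macrophages per library held Cd74 at over 1000 CPM, and 79.2% to 87.9% of P60 macrophages did.

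The peptide exchange factor was already present in newborn macrophages. H2-DMa was at 87.8, 81.9 and 87.1 CPM at P1 and at 669, 709 and 474 CPM at P60, a log2 change of 2.93 (SE 0.17, adjusted p = 2.0e-07). H2-DMb1 was at 22.1, 17.8 and 30.3 CPM and then at 426, 479 and 374 CPM (log2 change 4.25, SE 0.19, adjusted p = 4.6e-08). Each library of 1 age lay on the same side of all libraries of the other. The H2-DM values of P1 replicate 2 changed little without the droplet above, to 75.2 CPM for H2-DMa and 15.5 for H2-DMb1.

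Ciita, the transactivator, was not detected in P1 macrophages, with 0 UMIs among 5080558, and gave 65 UMIs at P60 (24.1, 10.4 and 24.5 CPM). Against a floor of 3 UMIs over the P1 group it was at least 34.2-fold higher at P60 (adjusted p = 6.7e-05). Cathepsin S was abundant at both ages, with Ctss at 1793, 1720 and 1669 CPM at P1 and at 1619, 1500 and 1193 CPM at P60. All P60 libraries lay below all P1 libraries, but the log2 change of -0.18 (SE 0.12) did not pass the test (adjusted p = 0.26).

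**Figure D1:**
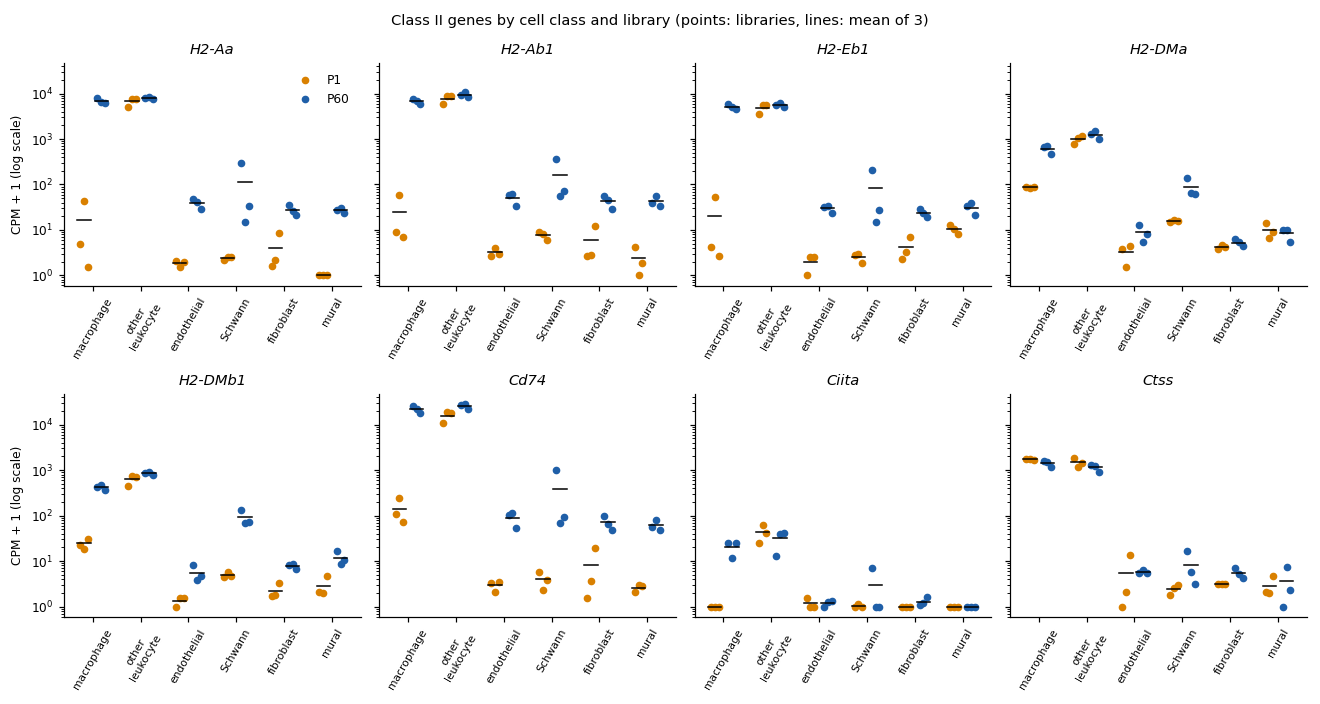
CPM + 1 of the 8 genes, on a log axis, in each library of 6 cell classes, with P1 and P60 libraries as separate points and lines at the means. In macrophages H2-Aa lay between 0.551 and 43.3 CPM at P1 and between 6196 and 7884 CPM at P60, whereas Ctss lay between 1193 and 1793 CPM at both ages.

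Among P60 macrophages the class II level differed between clusters in every library. The cluster led by Cd209f and Fcna (365 cells) held Cd74 at 6828 to 13312 CPM, H2-Aa at 2396 to 4417 CPM and H2-DMa at 225 to 385 CPM. In the cluster led by Lilra5 and Cd72 (310 cells) Cd74 was at 25526 to 37358 CPM, H2-Aa at 8882 to 11085 CPM and H2-DMa at 580 to 931 CPM. For these 3 genes the ranges over libraries did not overlap. Retnla, a secreted product of alternatively activated macrophages, went the other way, at 26757 to 40735 CPM in the first cluster and 572 to 1096 CPM in the second. Ctss differed less, at 1111 to 1407 and 1503 to 1970 CPM. The Cxcl1-led macrophages (133 cells, as few as 5 in a library) held Cd74 at 28321 to 35757 CPM, and the cycling Ube2c-led macrophages (33 cells) at 11789 to 25063 CPM. Clusters were chosen from the same cells and genes, so these differences were given no test.

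At P1 each macrophage cluster held Cd74 at 711 CPM at most. Macrophages led by Gpr84 and Dusp2 (278 cells) had 0 H2-Aa UMIs, Cd74 at 85.6 to 156 CPM and H2-DMa at 121 to 176 CPM. In the cluster with Lyve1 and Folr2 among its leading genes (159 cells) H2-DMa was at 5.21 to 16.1 CPM, Cd74 at 41.7 to 164 CPM and Ctss at 788 to 915 CPM, against 2430 to 2533 CPM of Ctss in the first. H2-DMa differed between these clusters without overlap, whereas the Cd74 ranges overlapped. Of the cycling macrophages, those led by Rrm2 and Birc5 (129 cells) held Cd74 at 78.9 to 711 CPM and H2-DMa at 82.8 to 141 CPM, and those led by Ccnb1 and Cdkn3 (38 cells) held Cd74 at 12.8 to 43.9 CPM and H2-DMa at 0 to 43.9 CPM. A cluster with Cx3cr1 among its leading genes (185 cells) was left unnamed and held Cd74 at 79.7 to 411 CPM, H2-DMa at 114 to 137 CPM and no Ciita. Of the other P1 leukocytes left outside the classes, a cluster led by Meg3 and Dcn (65 cells) held Cd74 at 885 to 2527 CPM. A cluster led by Ccl5 and Gimap4 (55 cells) held it at 48.2 to 1548 CPM. The P60 leukocyte cluster left outside the classes, led by Ccl21a and Igfbp5 (118 cells), held it at 9840 to 12454 CPM.

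Class II at P1 was found outside the macrophages. The 41 dendritic-like cells held Cd74 at 23084 to 24304 CPM, H2-Aa at 9492 to 12536 CPM, H2-DMa at 1335 to 1614 CPM and Ciita at 43.5 to 97.5 CPM. These cells were found without the class II genes, but H2-Ab1 and H2-Aa were their leading genes when all genes were ranked. A cluster of 98 cells led by S100a8 and Stfa1, with 4 of 5 monocyte markers and neutrophil genes such as S100a8, held Cd74 at 6038 to 15160 CPM and Ctss at 1740 to 2419 CPM, while the dendritic-like cells held Ctss at 291 to 410 CPM. The share of these 2 clusters with Cd74 at over 1000 CPM was 49.0% in P1 replicate 1, 74.5% in replicate 2 and 73.0% in replicate 3.

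**Figure D2:**
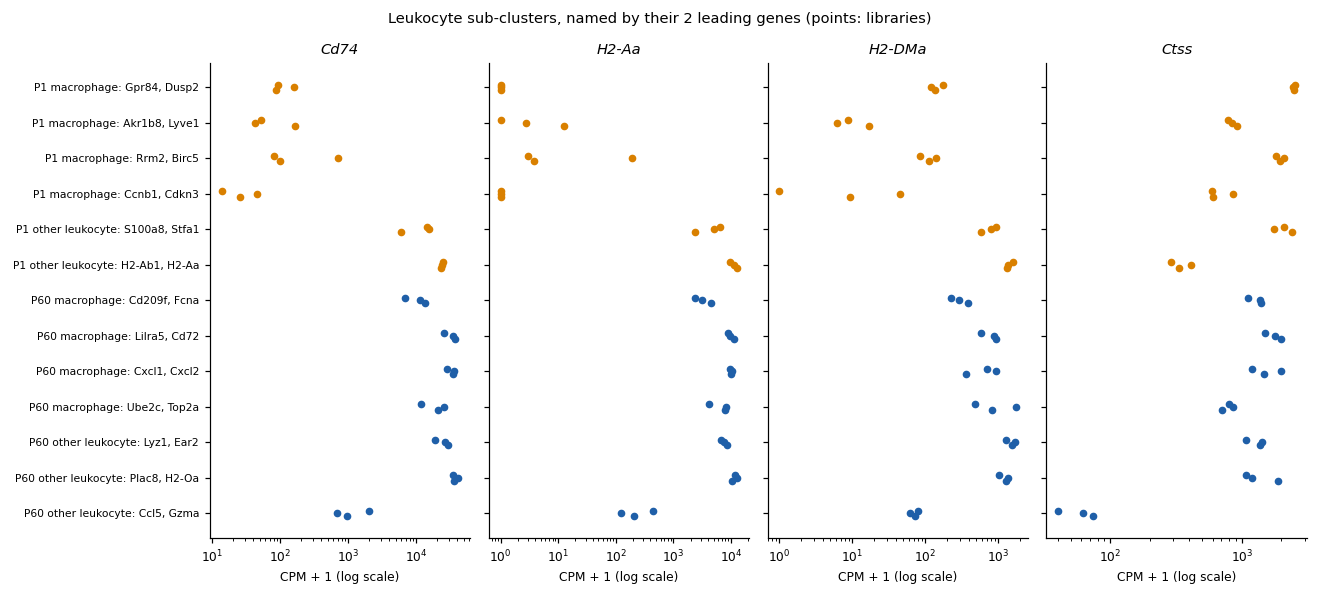
CPM + 1, on a log axis, of Cd74, H2-Aa, H2-DMa and Ctss in each cluster of the macrophage and other leukocyte classes, one point per library. Rows are sorted by age and class and labelled by leading genes. At P1 Cd74 reached 23084 to 24304 CPM in dendritic-like cells and stayed at or below 711 CPM in every library of every macrophage cluster.

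Leukocytes other than macrophages changed far less with age. Only Cd74 passed the test among the 8 genes, beside a background of 16.8% of 4533 genes (8.91% higher), and its libraries and those of H2-DMb1 did not overlap between ages (15.8% of genes tested had all P60 libraries above). At P1 the class consisted of the S100a8-led and dendritic-like clusters, at P60 of the Lyz1-led, Plac8-led and T/NK-like clusters. The Lyz1-led cluster, 219 of the 423 cells at P60, had no name, and its best marker list was that of macrophages (3 of 8 markers). The 8 macrophage markers summed to 1135 to 1817 CPM in the P60 class and to 15497 to 21798 CPM in P60 macrophages. The summed level of 6 neutrophil markers in the class was 1627, 3245 and 92.3 CPM at P1 and 2.67 to 8.73 CPM at P60, and its part in the changes was not tested. Cd74 was at 10745, 18788 and 17867 CPM at P1 and at 26636, 28102 and 21676 CPM at P60 (log2 change 0.73, SE 0.17, adjusted p = 0.01). The P60 libraries all lay above the P1 libraries, but the call was lost without P60 replicate 2 (log2 change 0.68, adjusted p = 0.053). H2-Aa was at 5176, 7616 and 7459 CPM and then at 7863, 8399 and 7442 CPM, and the ages overlapped. The changes of H2-Aa, H2-Ab1, H2-Eb1, H2-DMa and H2-DMb1 lay between 0.25 and 0.45 on the log2 scale, with Ciita at -0.38 and Ctss at -0.32, and none passed the test. When cells were scaled to 100000 instead of 10000 UMIs before clustering, the P1 class fell from 139 cells to 13, 19 and 10 cells per library, and H2-Aa, H2-Ab1 and H2-Eb1 were lower at P60 (log2 change -0.52, -0.50 and -0.44, all called) and Ctss was higher (1.68).

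Within the P60 class the clusters differed widely in Cd74. The Plac8-led cells (116 cells, with H2-Oa and Xcr1 among their leading genes) held Cd74 at 34614 to 41284 CPM and H2-Ab1 at 12090 to 15841 CPM. The Lyz1-led cells (219 cells) held Cd74 at 18456 to 28896 CPM with H2-DMa at 1275 to 1687 CPM, and Retnla at 25436 to 32161 CPM. T/NK-like cells (88 cells), which do not as a rule make class II in mice, held Cd74 at 685 to 1982 CPM, H2-Aa at 122 to 451 CPM and Ctss at 39.3 to 72.4 CPM.

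The change with age differed between macrophages and other leukocytes for 7 of the 8 genes (edgeR test of the age by class term with library as a block), against a background of 11.4% of 8070 genes. The log2 change of other leukocytes minus that of macrophages was -8.72 for H2-Aa (SE 0.35, adjusted p = 1.7e-17), -6.79 for Cd74 (SE 0.21, adjusted p = 3.0e-20) and -2.57 for H2-DMa (SE 0.15, adjusted p = 1.5e-13). Ctss did not pass (-0.15, SE 0.13, adjusted p = 0.55), but was called in the opposite direction with cells scaled to 100000 UMIs before clustering (2.18, adjusted p = 3.8e-30).

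Other genes of the pathway moved by smaller amounts in macrophages, to be read against the 38.1% of all tested genes that were called and the 19.2% called higher. Of the class II accessory genes, H2-Ob, the beta chain of the H2-DM inhibitor H2-O, and H2-DMb2 rose (log2 change 2.32, SE 0.46, and 1.62, SE 0.34), which are 2 of the 2 tested of 4 listed genes. None of the 6 tested subunits of the factors that bind the X and Y boxes or of Creb1 was called (median log2 change 0.13). Of 12 lysosomal processing genes 4 rose and 7 fell: Ctsd, cathepsin D, fell from 1925 to 1967 CPM to 521 to 627 CPM (log2 change -1.72, SE 0.11), Lgmn, an asparagine endopeptidase, fell (-1.41, SE 0.10), and Cst3, the cathepsin inhibitor cystatin C, rose (1.61, SE 0.10). Of 15 tested class I genes 7 rose and none fell, with H2-T23 and H2-Q7 at 2.11 and H2-K1, a classical class I heavy chain, at 1.10 on the log2 scale. Costimulation genes rose in 3 of 5 tested, led by Cd40 (2.92, SE 0.34), March1, a ubiquitin ligase that removes class II from the surface (1.23, SE 0.19), and Cd86 (0.84, SE 0.19). Interferon gamma pathway genes rose in 4 of 7 tested and fell in 1, with Jak2 at 1.31, Irf1 at 0.92 and Jak1 at 0.72.

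Immune cells were 8.06% to 12.8% of the cells of a library and held most class II UMIs. They held 92.6% to 98.7% of H2-Aa UMIs at P1 and 93.7% to 97.4% at P60, and 98.2% to 99.2% and 95.4% to 97.6% of Ctss UMIs. H2-DMa was spread more widely at P1, with 72.4% to 75.3% in immune cells, against 89.4% to 93.3% at P60. H2-DMb1 had 75.6% to 86.0% at P1 and 83.1% to 89.3% at P60.

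Droplets of endothelial cells, Schwann cells, fibroblasts and mural cells held several class II genes at higher levels at P60. In endothelial cells 5 of 6 tested genes were called higher (background 40.1% of 10877 genes called, 21.0% higher, 25.9% with all P60 libraries above all P1 libraries), and in Schwann cells 6 of 6 (44.3% of 11527, 23.6% and 28.6%). In fibroblasts 6 of 7 were called higher (59.8% of 14588, 31.1% and 35.0%) and in mural cells 4 of 4 (33.0% of 8471, 17.8% and 20.1%). Of the tested genes, those called were the ones whose P60 libraries all lay above the P1 libraries. Cd74 in endothelial cells was at 2.21, 1.03 and 2.53 CPM at P1 and at 100, 112 and 53.0 CPM at P60 (log2 change 5.51, SE 0.42, adjusted p = 1.0e-06). In mural cells it was at 1.08, 1.92 and 1.83 CPM and then at 55.6, 78.7 and 46.4 CPM (5.19, SE 0.38, adjusted p = 7.5e-06). In both classes the ages did not overlap for Cd74, and the highest P60 level of 112 CPM compares with 18121 CPM in the lowest P60 macrophage library.

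In fibroblasts Cd74 was at 0.547, 2.67 and 18.2 CPM at P1 and at 98.3, 63.6 and 47.9 CPM at P60 (3.27, SE 0.78, adjusted p = 0.0056). The high P1 library was replicate 3, where 1 droplet held 171 of the 271 Cd74 UMIs of the library, which stood at 6.71 CPM without it. Schwann cells had Cd74 at 4.84, 1.31 and 2.76 CPM at P1 and at 1000, 66.0 and 90.4 CPM at P60 (6.80, SE 0.89, adjusted p = 3.3e-05). P60 replicate 1 stood apart, and 1 of its droplets held 199 of the 398 Cd74 UMIs of P60 Schwann cells. That droplet also had 160 UMIs of 10 leukocyte reference genes, and without it the library was at 398 CPM. Without P60 replicate 1 the Schwann log2 change of Cd74 was 4.55 and still passed (adjusted p = 1.6e-06).

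The level in non-immune droplets was set against that of 10 leukocyte reference genes, C1qa, C1qb, C1qc, Tyrobp, Fcer1g, Laptm5, Lyz2, Pf4, Csf1r and Coro1a, each as a percent of its level in the immune cells of the same library. RNA carried over from 1 pool alone would keep its genes in 1 ratio in every class. The 10 reference genes differed among themselves, and in endothelial cells the highest of them was at 0.956% to 2.61% at P1 and at 0.670% to 1.04% at P60. Cd74 in endothelial cells was at 0.290% to 0.479% of the immune level at P60, and the median of the reference genes was at 0.418% to 0.582%. Cd74 in fibroblasts was at 0.262% to 0.40%, against reference medians of 0.386% to 0.564%, and in mural cells at 0.226% to 0.337%, against 0.497% to 0.542%. H2-Aa in endothelial cells was at 0.445% to 0.630% and in fibroblasts at 0.322% to 0.469%. These values lay within the range of the 10 reference genes or below it in each P60 library, while for Schwann cells the P60 range was wide, from 0.283% to 4.07% for Cd74 and from 0.349% to 2.35% for the reference median.

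**Figure D3:**
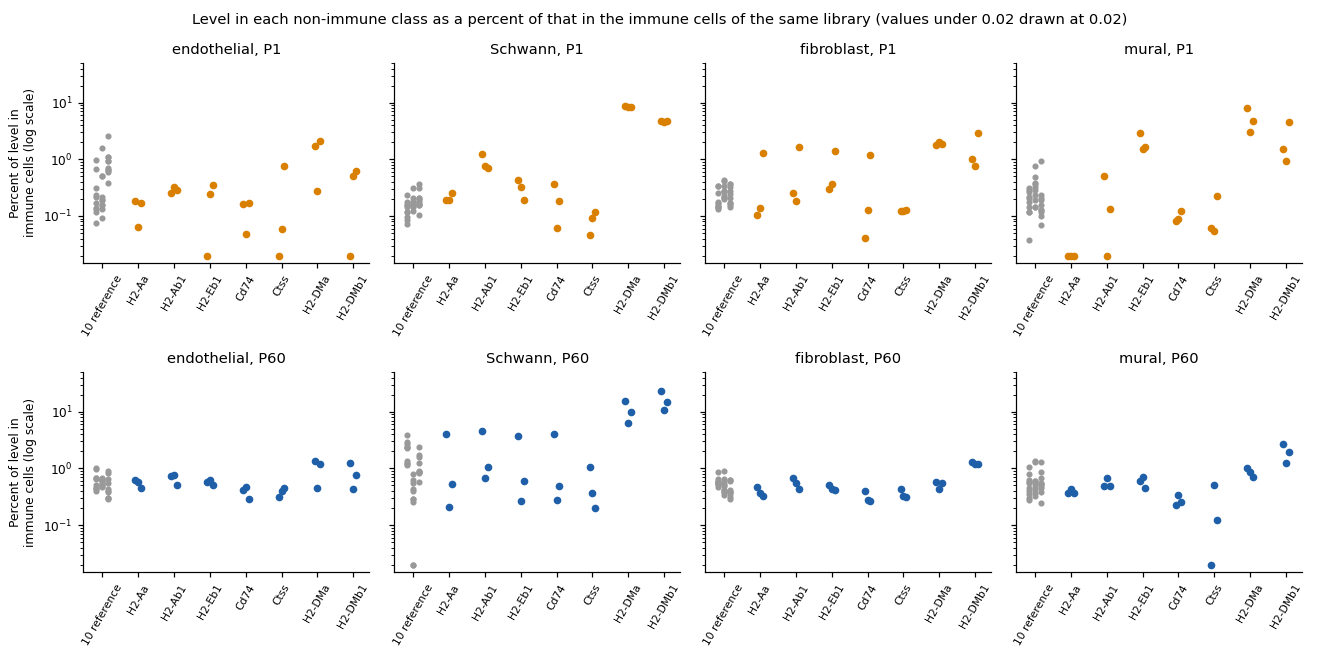
Level of each gene in non-immune classes as a percent of its level in the immune cells of the same library, on a log axis, one point per library, with the 10 leukocyte reference genes as grey points at the left and values under 0.02% drawn at 0.02%. H2-DMa and H2-DMb1 lay above all 10 reference genes in 6 of 6 libraries in Schwann cells, whereas Cd74 lay at or under the reference medians in each P60 library of endothelial, fibroblast and mural cells.

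The share of cells with a Cd74 UMI, after thinning each cell to 1500 UMIs, rose in macrophages from 9.80% ± 0.81 to 88.1% ± 3.42 (mean ± SD over 3 libraries) and in other leukocytes from 70.3% ± 11.3 to 80.9% ± 4.41. In the classes that should hold little class II it rose from 0.273% ± 0.152 to 8.62% ± 0.916 in endothelial cells, from 0.279% ± 0.134 to 12.2% ± 3.52 in Schwann cells, from 0.304% ± 0.170 to 7.30% ± 0.930 in fibroblasts and from 0.269% ± 0.147 to 7.50% ± 1.05 in mural cells. An exact two-sided permutation test gave p = 0.1 for each class, the smallest p that 3 against 3 libraries allow. Unthinned shares were 31.9% and 91.6% in macrophages, 1.56% and 25.0% in endothelial cells, 1.03% and 22.1% in Schwann cells and 1.24% and 22.8% in fibroblasts. Median depths per library ran from 1910 UMIs in P60 Schwann cells to 8241 UMIs in P1 macrophages.

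H2-DMa and H2-DMb1 lay above all 10 leukocyte reference genes in 6 of 6 Schwann cell libraries, and in part of the libraries of the other non-immune classes. H2-DMa was at 14.02, 16.0 and 14.6 CPM in Schwann cells at P1 and at 135, 63.7 and 61.7 CPM at P60 (log2 change 2.40, SE 0.26, adjusted p = 6.6e-06). As a percent of the immune level this was 8.51% to 8.73% at P1 and 6.42% to 15.3% at P60, above all 10 reference genes in 6 of 6 libraries, whose medians were 0.131% to 0.185% and 0.349% to 2.35%. H2-DMb1 was at 3.38, 4.64 and 3.73 CPM and then at 135, 68.4 and 71.9 CPM (4.41, SE 0.29, adjusted p = 5.0e-08), or 4.56% to 4.84% and 10.9% to 23.6% of the immune level. The ages did not overlap for either gene. Fibroblast H2-DMb1 also lay above all 10 reference genes in 6 of 6 libraries, at 0.748% to 2.86% of the immune level at P1 and 1.19% to 1.28% at P60. In mural cells H2-DMa, at 3.06% to 8.10%, and H2-DMb1, at 0.939% to 4.58%, did so in 3 of 3 P1 libraries, and H2-DMb1 in 2 of 3 at P60. Endothelial H2-DMa did so in 1 of 3 P1 and 2 of 3 P60 libraries, and H2-DMb1 in 0 and 1.

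Most UMIs of H2-DMa and H2-DMb1 in Schwann cells came from droplets with few UMIs of the leukocyte reference genes. Of the Schwann cell UMIs of H2-DMa, 286 of 303 at P1 and 80 of 101 at P60 came from droplets with fewer than 2 UMIs of the reference genes, and for H2-DMb1 76 of 80 and 93 of 108. Of Cd74, 81 of 398 UMIs at P60 did. Droplets with 2 or more reference UMIs made up 8.83% of P60 Schwann droplets and held 79.6% of Cd74, 77.3% of H2-Aa, 20.8% of H2-DMa and 13.9% of H2-DMb1 UMIs. They were deeper than the rest and held a larger share of all UMIs than of droplets. Over the 3 P60 libraries together, H2-DMb1 stood at 87.3 CPM with these droplets and at 87.1 CPM without them. H2-DMa stood at 81.7 and 74.9 CPM, and Cd74 at 322 and 75.8 CPM. Without those droplets H2-DMa was at 65.0 to 101 CPM and H2-DMb1 at 72.8 to 123 CPM in P60 Schwann cells, with log2 changes of 2.29 and 4.41 that passed the test, and Cd74 was at 59.8 to 93.3 CPM. H2-DMb2 gave 1 UMI in Schwann cells at P1 and 3 at P60.

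**Figure D4:**
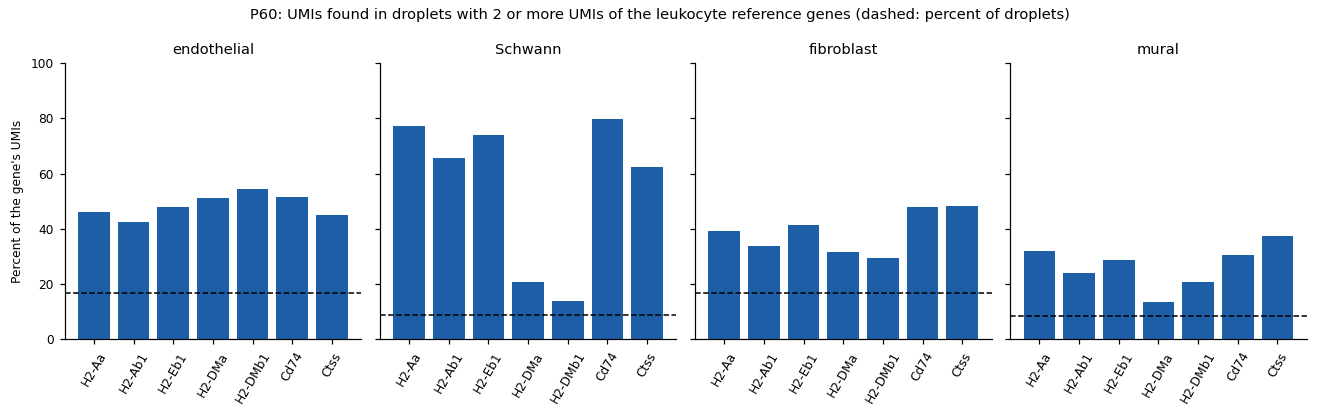
Percent of each gene's UMIs in a non-immune class that came from droplets with 2 or more UMIs of the leukocyte reference genes, as bars for each class at P60, with a dashed line at the percent of droplets of that kind. The line counts droplets and not UMIs, and in each class these droplets held a larger share of all UMIs than of droplets. In P60 Schwann cells they held 79.6% of Cd74 UMIs and 13.9% of H2-DMb1 UMIs.

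Among P1 Schwann cells H2-DMa followed the clusters with myelin genes. It was at 35.2 to 42.0 CPM in the cluster with Ncmap and Pmp22 among its leading genes (565 cells) and at 34.9 to 38.6 CPM in the Prx-led cluster (281 cells, median 3069 UMIs), and at 1.98 to 6.60 CPM in the clusters led by Ube2c, Epha5 and Ezr. H2-DMb1 was at 10.2 to 13.2 and 2.76 to 11.1 CPM in the first pair and at 0 to 2.83 CPM in the others. The Prx-led cluster was split from a cluster of mixed markers. Its median mitochondrial share was 14.8%, against 3.09% to 3.85% in the other P1 Schwann clusters. The 2 clusters with Mag, a myelin adhesion protein, among their leading genes held 26.6% of P1 Schwann cells and 29.5% of their UMIs, but 230 of 303 H2-DMa UMIs (75.9%) and 63 of 80 H2-DMb1 UMIs (78.8%). Of H2-Ab1 they held 26.7% and of Cd74 11.9%. This pair of clusters was picked after the values had been seen and is described without a test.

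**Figure D5:**
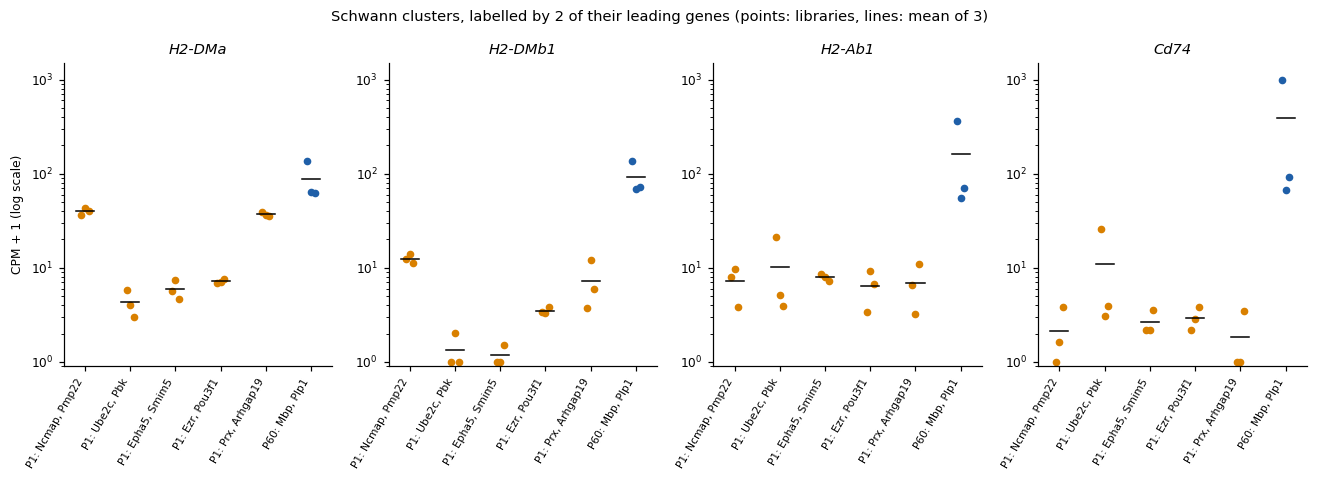
CPM + 1, on a log axis, of H2-DMa, H2-DMb1, H2-Ab1 and Cd74 in each Schwann cell cluster, one point per library with a line at the mean, labelled by leading genes. H2-DMa stood at 34.9 to 42.0 CPM in both P1 clusters with Mag among their leading genes and at 1.98 to 6.60 CPM in the 3 other P1 clusters, and P60 Schwann cells formed 1 cluster at 61.7 to 135 CPM.

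H2-Ab1 in P1 Schwann cells, at 8.06, 7.11 and 4.97 CPM, was also above all 10 reference genes in 3 of 3 libraries (0.717% to 1.26% of the immune level), which was no longer so in 2 of 3 P60 libraries. P1 Schwann cells with H2-Ab1 were not confined to a cluster, since the clusters lay between 2.22 and 20.2 CPM. The value of 20.2 CPM was that of 1 library of the Ube2c-led cluster. The 135 H2-Ab1 UMIs of P1 Schwann cells lay in 115 droplets, and a single droplet held 19 of them. In mural cells at P1 H2-Eb1 was at 11.9, 9.58 and 7.30 CPM from 29 UMIs, while H2-Aa gave 0 UMIs among 3063041 and Cd74 gave 5. H2-Eb1 there was at 1.54% to 2.89% of the immune level, above all 10 reference genes in 3 of 3 libraries, and 27 of its 29 UMIs came from droplets with fewer than 2 reference UMIs. H2-Eb1 rose to 32.3, 37.2 and 20.1 CPM at P60 (log2 change 1.70, SE 0.32, adjusted p = 0.0024), and H2-Aa rose to 27.2, 29.5 and 22.6 CPM, at least 26.1-fold over a floor of 3 UMIs in the P1 group (adjusted p = 7.0e-05). H2-DMa in mural cells, at 13.0, 5.75 and 8.21 CPM at P1 and 9.06, 8.75 and 4.39 CPM at P60 (27 and 22 UMIs), did not pass the filter and was not tested. H2-Eb1 overlaps Gm20513, whose part in these UMIs was not tested.

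Fibroblasts had H2-DMa at 2.89, 3.74 and 3.15 CPM at P1 and at 5.18, 4.32 and 3.37 CPM at P60, which overlapped and did not pass (log2 change 0.41, SE 0.22, adjusted p = 0.13), though it passed without P60 replicate 3 (0.56, adjusted p = 0.015). H2-DMb1 rose from 0.703, 0.763 and 2.28 CPM to 7.33, 7.45 and 5.73 CPM. At P1 H2-DMa stood above all 10 reference genes in 3 of 3 libraries (1.80% to 1.99% of the immune level), and at P60 in none (0.436% to 0.587%). The change with age of H2-DMa and H2-DMb1 was larger in Schwann cells than in fibroblasts by 1.87 (SE 0.27, adjusted p = 1.2e-07) and 1.86 (SE 0.38, adjusted p = 8.9e-05) on the log2 scale. For H2-DMa this held in 12 of 12 alternatives (1.57 to 2.11), and for H2-DMb1 in 11 of 12, with 1.10 and adjusted p = 0.096 without P1 replicate 3. Of the 8 genes 6 were called in this comparison, against a background of 31.3% of 14969 genes, but only 3 when droplets with leukocyte RNA were left out, among them H2-Ab1 in the other direction (-1.22, adjusted p = 0.0018).

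Endothelial cells and fibroblasts differed in their change with age for 5 genes (background 32.1% of 14630): H2-Aa by 2.45, H2-Eb1 by 2.07, Cd74 by 2.39, H2-Ab1 by 1.52 and H2-DMa by 1.43 on the log2 scale. None was called when droplets with leukocyte RNA were left out (Cd74 then at -0.26, adjusted p = 0.77), and 1 was called without P1 replicate 3, the library with the class II rich fibroblast droplet. Endothelial Ciita was seen with 1 UMI at P1 and 2 at P60, and Schwann cell Ciita with 1 and 2.

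More class I genes were called higher than lower in each non-immune class. In endothelial cells 13 of 16 rose and none fell, where 21.0% of all genes were called higher (median log2 change 1.87, against 0.01 over all genes tested). H2-Q7 went from 0.553 to 2.58 CPM to 75.3 to 87.8 CPM (5.70, SE 0.27, adjusted p = 2.6e-08), H2-K1 from 90.4 to 96.7 CPM to 934 to 1097 CPM (3.48, SE 0.13, adjusted p = 5.5e-09), and Nlrc5, the class I transactivator and relative of Ciita, rose by 3.52 (SE 0.69, adjusted p = 0.0017). Schwann cells had 12 of 15 tested class I genes higher and 2 lower (23.6% of all genes higher), fibroblasts 12 of 15 higher (31.1%), and mural cells 8 of 13 higher and 1 lower (17.8%). The remaining tested genes, 3, 1, 3 and 4 in this order, were not called. Of the other lists in endothelial cells, Ctsc rose by 3.03 and Cst3 by 2.50, while Cd40 fell by 2.22, Ifngr2 by 1.12 and Cd63 by 0.70 on the log2 scale. Cd274, an inhibitory ligand, rose by 3.38, Jak1 by 0.50 and Rfxank, 1 of 7 tested factors at the class II promoters, by 1.01.

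Over the 36 sums of 6 classes in 6 libraries, each gene was correlated with the mean log2(CPM + 1) of the other 7 genes. Cd74 had the highest r (0.98) and Ctss the lowest (0.81). Of 16485 genes outside the lists, those most like the mean of all 8 were Ifitm6 (r = 0.97), Ccr2 (0.96), Rnase6 (0.94), Psap, Kmo, Slamf7, Ccl6, Cfp, Tnip3 and Tep1 (0.93 each). Ccr2, a chemokine receptor of monocytes, had means of 48.0 and 284 CPM in macrophages and 660 and 818 CPM in other leukocytes at P1 and P60. The sums share libraries and classes, so these values describe the pattern and carry no p.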

How the data were processed

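Sciatic nerve cells from 3 P1 and 3 P60 libraries had been read by the authors on a HiSeq2500 after 10x Chromium 3′ v2 library construction. The deposited files hold UMI counts per gene and barcode, which the submitters' processing notes tie to Cell Ranger 2.0.2 and GRCm38.p5, while the study's methods name a human build. The gene identifiers are mouse. No column of per-sample values went unused (0).

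Cells with 500 to 5000 genes were clustered per age in Seurat 5.3.0 (10 principal components, resolution 0.5 at P1 and 0.4 at P60, total 10000) with the 8 genes and the pathway lists removed from the variable genes. Clusters were named from marker lists, and the leukocytes were clustered again at resolution 0.6. UMIs were summed per class and library and tested with edgeR 4.0.16 (TMM, filterByExpr, quasi-likelihood, Benjamini-Hochberg over all genes of the fit, threshold 0.05), with DESeq2 1.42.0 as an alternative. The SE is the absolute log2 change divided by the root of the F statistic. Age by class terms were fitted with library as a block. Cells of at least 1500 UMIs were thinned to 1500 for shares. Droplets with 2 or more UMIs of the reference genes were taken as carrying leukocyte RNA. Cells with the highest Scrublet scores were kept in the main analysis and left out (2.74% to 3.67% of a library) in an alternative. The scripts were tested on simulated data.

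The text names the 8 genes in every class, the 3 genes of each pathway list with the largest called change in macrophages and in endothelial cells, and the 10 genes with the highest correlation to the mean of the 8. Some genes that the rule picks are not reported here. The 8 genes, the lists and the comparisons were chosen with earlier results of these data known. Intervals and floors cover counting error only. Same-numbered libraries of P1 and P60 correlated at -0.05 to 0.12 in their deviations, so the numbers were not taken as pairs.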

Additional observations from a re-analysis of the deposited data

Results flagged for a closer look

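The change with age differed between cell classes for 18 gene and class pairs, by the edgeR test of the age by class term. Other leukocytes changed less than macrophages (log2 change of the first minus the second) by -8.72 for H2-Aa, -8.08 for H2-Ab1, -8.09 for H2-Eb1, -2.57 for H2-DMa, -3.84 for H2-DMb1, -6.79 for Cd74 and -7.62 for Ciita. The Ciita value rests on 0 UMIs in P1 macrophages and is no bound. Endothelial cells changed more than fibroblasts by 2.45 for H2-Aa, 1.52 for H2-Ab1, 2.07 for H2-Eb1, 1.43 for H2-DMa and 2.39 for Cd74. All 5 of these calls were lost without droplets with leukocyte RNA, and all but H2-DMa without P1 replicate 3. H2-DMa was called in 6 of 12 alternatives, H2-Aa, H2-Ab1 and Cd74 in 8 each and H2-Eb1 in 9. Schwann cells changed more than fibroblasts by 2.82 for H2-Aa, 1.17 for H2-Ab1, 2.51 for H2-Eb1, 1.87 for H2-DMa, 1.86 for H2-DMb1 and 3.31 for Cd74. H2-Aa was called in 6 of 12 alternatives, H2-Ab1 in 7, Cd74 in 8, H2-Eb1 in 9, H2-DMb1 in 11 and H2-DMa in 12. The H2-Ab1 calls include -1.22 without droplets with leukocyte RNA. With the highest Scrublet scores left out H2-Aa was at 0.94, H2-Ab1 at -0.087 and H2-Eb1 at 0.83, and these were not called. In P60 replicate 1 a single Schwann droplet held 199 of the 398 Cd74 UMIs of the class at P60 and 160 reference UMIs, and in P1 replicate 3 a single fibroblast droplet held 171 of the 313 Cd74 UMIs of all P1 fibroblasts. The terms were not refitted without these droplets alone.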

How the results depend on the processing

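Of the values for single genes, 807 kept their direction and their side of the threshold under an alternative, 35 fell below it, 4 passed it and 26 turned in direction. Of the counts of called genes and the Cd74 shares, 172 stayed and 23 moved. Leaving out 1 library at a time gave 7 called genes in macrophages each time, 0 to 2 in other leukocytes, 4 to 7 in endothelial cells, 6 to 7 in Schwann cells, 6 to 7 in fibroblasts and 4 in mural cells. The count was 0 in other leukocytes without P60 replicate 2 and 2 without P60 replicate 3. For the age by class terms it was 7 for other leukocytes against macrophages, 1 to 5 for endothelial cells against fibroblasts (1 without P1 replicate 3) and 2 to 6 for Schwann cells against fibroblasts (2 without P1 replicate 3, 3 without P60 replicate 1). The rise of the thinned Cd74 share ranged from 76.8 to 80.2 points in macrophages, 4.09 to 14.4 in other leukocytes, 7.82 to 8.65 in endothelial cells, 10.0 to 13.5 in Schwann cells, 6.46 to 7.32 in fibroblasts and 6.82 to 7.82 in mural cells. Without thinning it was 59.6 points in macrophages, 23.5 in endothelial cells, 21.1 in Schwann cells, 21.5 in fibroblasts and 15.8 in mural cells. Thinned to 1000 UMIs it was 5.86 in endothelial cells, 4.78 in fibroblasts and 4.95 in mural cells, and with leukocyte RNA droplets left out it was 7.38 in endothelial cells.

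With cells scaled to 100000 UMIs before clustering, 4 genes were called in other leukocytes (H2-Aa -0.52, H2-Ab1 -0.50, H2-Eb1 -0.44 and Ctss 1.68, with H2-DMa at -0.24 and H2-DMb1 at -0.21 not called), Ctss of other leukocytes against macrophages was 2.18 and called, and 1 and 3 genes were called for endothelial and Schwann cells against fibroblasts (H2-Ab1 at -0.13 in the second). With no filter on low counts 2 genes were called in other leukocytes, and Ctss against macrophages was 0.027. With the pathway genes kept in the clustering 2 and 3 genes were called against fibroblasts, in endothelial and Schwann cells, with H2-Ab1 at -0.16 in Schwann cells. With the highest Scrublet scores left out 3 genes were called for Schwann cells against fibroblasts (H2-Ab1 -0.087, Ctss -0.33). Ctss of endothelial cells against fibroblasts was then 2.42 and called, while it was -0.88 and not called in the main fit. With leukocyte RNA droplets left out, edgeR called 0 genes for endothelial cells against fibroblasts (H2-Ab1 -0.26, Cd74 -0.26, Ctss 2.12) and 3 for Schwann cells (H2-Aa -0.62, H2-Ab1 -1.22, Ctss -0.23). Leaving out 1 library at a time, the values whose sign turned ranged from -0.69 to 0.036 for Ciita in other leukocytes (turned without P1 replicate 2), from -0.50 to 3.07 for Ctss in endothelial cells (P1 replicates 1 and 2), from -0.31 to 0.020 for Ctss of other leukocytes against macrophages (P1 replicate 1), from -0.12 to 2.23 for H2-Ab1 and -1.46 to 2.22 for Ctss of endothelial cells against fibroblasts and from -0.52 to 1.75 for H2-Ab1 of Schwann cells against fibroblasts (P1 replicate 3 in each). Without P60 replicate 3 fibroblast H2-DMa gained a call (0.56), and without P1 replicate 3 endothelial Ctss did (3.07). Of the 27 Ctss UMIs of P1 endothelial cells 25 were in replicate 3, and a single droplet held 24. The cause of these changes was not tested.

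The replicate numbers of P1 and P60 were not shown to pair libraries. With the replicate block 7, 1, 5, 6, 6 and 4 genes were called in macrophages, other leukocytes, endothelial, Schwann, fibroblast and mural cells, as without it, and no call changed. Counting the P1 cluster with Cx3cr1 among its leading genes as macrophages was chosen after seeing the data and changed no count. Ciita levels, and every class with few UMIs, are limited by depth.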
